A study of Mus musculus with 10 samples.

Results

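Chromosome 3 of the mouse was examined across low-coverage whole-genome DNA libraries of mouse embryonic stem cells (mESCs) sampled before and after long culture. It was represented by all 16004 windows of 10 kb that carry its name among the 272566 windows analysed, and 230281 windows of the other 18 autosomes served for comparison. Chromosome 3 was selected on its share of reads and its median log2 ratio to p0, which rose in these same libraries, so its rise over the starting cultures is given below as a description without a test. What was not used for that choice is where along the chromosome the reads were gained, how evenly, and at which genes.

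The 10 libraries came from 2 male C57/Bl6 mESC lines and formed 5 groups of 2 libraries, with 1 library per line in each group. All cultures were kept in 2i/LIF, a medium with 2 kinase inhibitors and the cytokine LIF that holds cells in naive pluripotency. The group p0 was taken at the start of the experiment, after derivation of the lines in Keniry2022-type culture. From p0 each line was carried for 10 and 20 passages (p10 and p20) in Mulas2019 conditions, with attached cells on gelatin at lower density and a longer interval between passages, or in Keniry2022 conditions, with cells in suspension at higher density and daily passaging. At equal passage number the Mulas2019 cultures were therefore older in days, and by days p10 Mulas2019 corresponds to p20 Keniry2022. Replicates are separate lines, so the spread within a group is that between 2 lines and is known only roughly.

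Sequencing total DNA of a culture counts fragments from every cell, so the share of reads from a chromosome follows its mean copy number over the whole population. A gain carried by some of the cells raises that share by less than a full extra copy would, and a whole-chromosome gain raises it evenly from end to end, whereas a gain of a segment leaves a step. Mouse chromosomes are acrocentric, with the centromere at the very start of the sequence. In dividing cells, parts of a chromosome that replicate early are present in more copies than parts that replicate late, and the amplification steps of library preparation treat AT-rich and GC-rich fragments unequally. Mouse chromosome 3 carries Sox2, which encodes a core transcription factor of pluripotency.

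In the GRCm38 (mm10) genome, which the ends of the deposited windows match, chromosome 3 was 160039680 bp long. Its GC content of 40.5% was the lowest of the 19 autosomes, where the other 18 spanned 40.9% to 43.8%. It holds 1004 protein-coding genes, or 6.42 per assembled Mb, the 4th lowest density of the 19. Cut into 16 segments of 10 Mb from its start, the chromosome alternates between AT-rich, gene-poor stretches and GC-rich, gene-dense ones. Segment 8 had the lowest GC content (37.7%) and 21 genes, segment 5 followed with 37.8% and 15 genes, and segment 11 had the highest (43.4%) with 131 genes. Base composition bears on every value below, so a stretch of each kind is shown.

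The sequences are the plus strand of GRCm38 in lower case with G and C in capitals. They come from the 10 kb windows whose GC content lay nearest to that of segments 8 and 11, chr3:70310001-70320000 and chr3:104020001-104030000. From each window the 200 bases nearest to the window's own GC content are printed, a choice made after their values were seen, because the middle 200 bases held 41.5% and 37.5% GC, the opposite order.
AT-rich window of segment 8, chr3:70314801-70315000, 38.0% GC: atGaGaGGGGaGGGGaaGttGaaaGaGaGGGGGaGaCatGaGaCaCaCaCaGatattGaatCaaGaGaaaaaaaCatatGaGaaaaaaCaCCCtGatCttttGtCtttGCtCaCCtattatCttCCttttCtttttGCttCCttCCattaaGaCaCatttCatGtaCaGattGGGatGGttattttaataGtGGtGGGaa
GC-rich window of segment 11, chr3:104021001-104021200, 43.0% GC: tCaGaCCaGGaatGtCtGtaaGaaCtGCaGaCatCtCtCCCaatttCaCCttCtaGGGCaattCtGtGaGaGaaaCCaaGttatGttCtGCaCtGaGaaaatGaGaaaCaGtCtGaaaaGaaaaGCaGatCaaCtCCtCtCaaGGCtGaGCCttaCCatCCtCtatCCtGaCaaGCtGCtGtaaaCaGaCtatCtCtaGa
The AT-rich window held 101 and 85 reads in replicates 1 and 2 of p0 and 122 and 143 reads in p10 Mulas2019. The GC-rich window held 149 and 151 reads in p0 and 129 and 174 reads in p10 Mulas2019. In the p10 Mulas2019 library of replicate 1, which was the shallowest of the 10 with 27270648 reads, the AT-rich window thus held more reads than at p0 and the GC-rich window fewer. Counting error in a single window is of the order of these differences.

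All libraries were of similar depth, with up to 35354358 reads. A 10 kb window of chromosome 3 held a median of 108 to 152 reads, depending on the library, so windows were summed to bins of 1 Mb. The median bin then held 11006 to 14798 reads and a counting error of 0.822% to 0.953% of its value. Of 161 such bins on chromosome 3, 157 passed the filter on low coverage, beside 2234 bins on the other autosomes. Of the 16004 windows, 359 had no sequence in the assembly and 5 more had no read in any library. Another 56 stayed under 0.1 of the median window in every library and 0 exceeded 5 times the median in every library. The Y chromosome took 0.00145% of reads in p0 replicate 1 and 0.0554% in p0 replicate 2. Replicate 1 was also the lower of each pair at p10 and in p20 Mulas2019, whereas the library labelled p20 Keniry2022 replicate 1 held 0.0441% and that labelled replicate 2 held 0.000673%. The replicate numbers of p20 Keniry2022 may therefore not follow the lines, and its libraries are called by their labels.

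The share of reads from chromosome 3 was higher in each of the 8 cultured libraries than in either p0 library. It was 5.75% and 5.79% at p0, 6.28% and 6.56% in p10 Mulas2019, and 6.40% and 7.14% in p20 Mulas2019. In Keniry2022 conditions it was 5.996% and 6.15% at p10, and 6.58% and 6.18% in the libraries labelled replicates 1 and 2 at p20. The 95% Wilson intervals, which cover counting error only and not the spread between cultures, reached from 5.74% to 5.76% in p0 replicate 1 and from 5.99% to 6.004% in p10 Keniry2022 replicate 1, the lowest of the cultured libraries.

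Dose was next defined as the median log2 ratio of the chromosome 3 bins to the p0 library of the same replicate number, minus the same median over the bins of the other autosomes. It was 0.17 and 0.23 in p10 Mulas2019, 0.19 and 0.33 in p20 Mulas2019, 0.082 and 0.11 in p10 Keniry2022, and 0.22 and 0.10 in p20 Keniry2022. In every library chromosome 3 ranked highest of the 19 autosomes on this scale. The other autosomes were themselves spread widely, from -0.16 to 0.12 in both p10 Mulas2019 libraries, so part of the scale is shared with them.

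That spread followed GC content. Over the 157 bins of chromosome 3 the log2 ratio to p0 and the GC content had a Pearson r of -0.97 and -0.96 in p10 Mulas2019, -0.95 and -0.94 in p20 Mulas2019, -0.94 and -0.95 in p10 Keniry2022, and -0.84 and -0.83 in p20 Keniry2022. These are descriptions across neighbouring bins of the same libraries. AT-rich bins were relatively higher than at p0 in all 8 libraries, most steeply in p10 Mulas2019. The same slope ran through the other autosomes, and chromosome 3, as the autosome with the lowest GC content, lay towards its high side. Library preparation and the replication state of the cells can both vary with GC content, and their part in the slope was not tested.

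**Figure D1:**
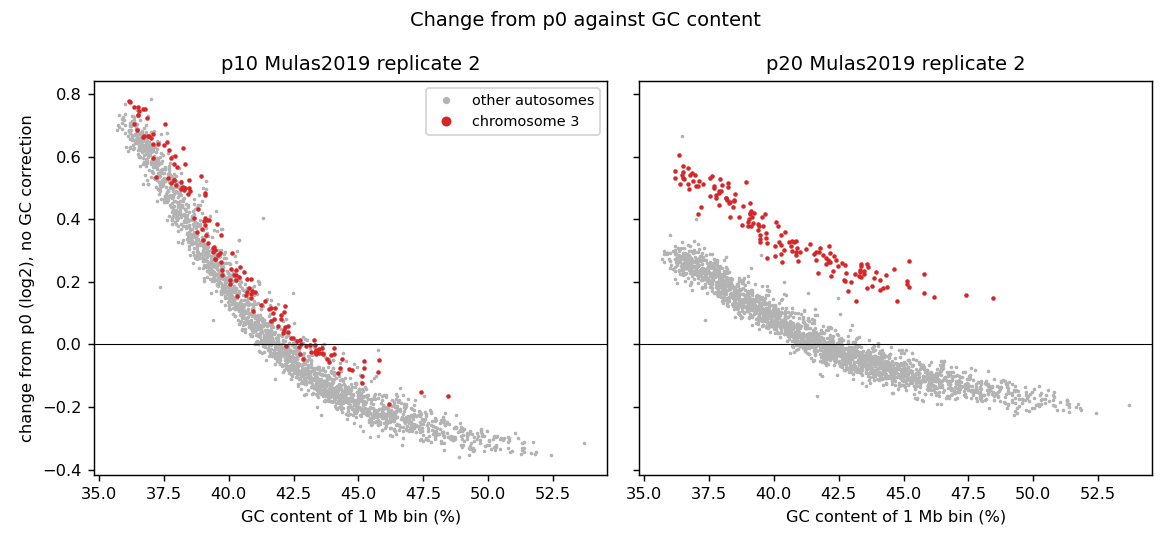
Change from p0 (log2 ratio, vertical axis, no GC correction) against the GC content of each 1 Mb bin (percent, horizontal axis) in replicate 2 of p10 Mulas2019 (left) and p20 Mulas2019 (right). Red points are the 157 bins of chromosome 3 and grey points the 2234 bins of the other autosomes; at p10 the red points lie along the grey curve and slightly above it, and at p20 they stand clear of it at every GC content.

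A smooth curve of log2 CPM on GC content, fitted on the other autosomes only, was subtracted from each library to set this slope aside. At p0 the GC-corrected level of chromosome 3 against the other autosomes was then 0.0036 and 0.0055, ranks 8 and 7 of 19, so it did not stand out before culture. After culture it ranked highest of the 19 in all 8 libraries on the dose scale. The GC-corrected dose was 0.023 and 0.087 in p10 Mulas2019, 0.11 and 0.28 in p20 Mulas2019, 0.025 and 0.046 in p10 Keniry2022, and 0.19 and 0.086 in p20 Keniry2022. The other 18 autosomes stayed between -0.018 and 0.012 in all of these libraries. The excess over the highest of them was large at p20 and small in both p10 libraries of replicate 1, where the highest other autosome reached 0.012 in Mulas2019 conditions and 0.0067 in Keniry2022 conditions. In p10 Mulas2019 replicate 1, without reference to p0, chromosome 3 had a level of 0.021 and ranked 2nd of 19.

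**Figure D2:**
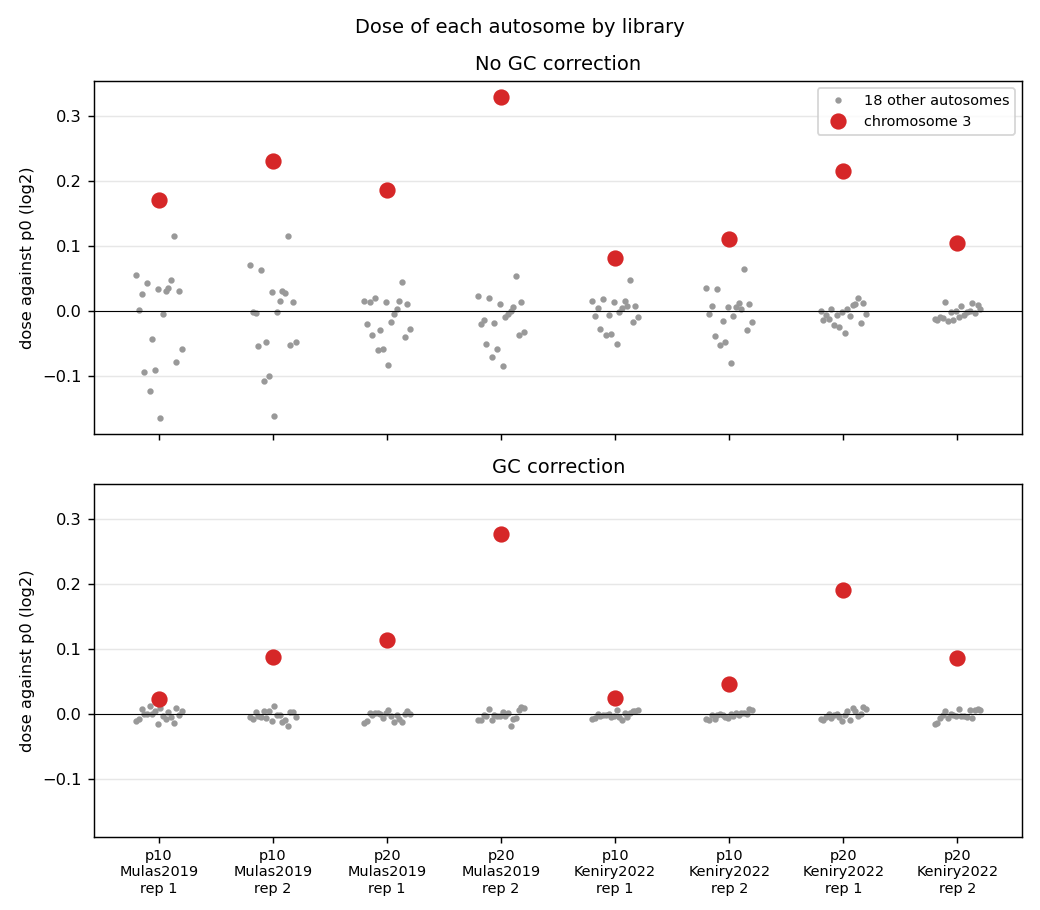
Dose of each autosome against p0 (log2, vertical axis) in the 8 cultured libraries (horizontal axis), without (top) and with (bottom) GC correction. Red circles are chromosome 3 and grey dots the 18 other autosomes; with the correction the grey dots close to within -0.018 and 0.012, and chromosome 3 lies above them in every library, from 0.023 to 0.28.

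On a linear scale the GC-corrected doses equalled 1.02 and 1.06 times p0 in p10 Mulas2019, 1.08 and 1.21 times in p20 Mulas2019, 1.02 and 1.03 times in p10 Keniry2022, and 1.14 and 1.06 times in p20 Keniry2022. If every cell held 2 copies at p0 and no cell gained more than 1, the highest of these would correspond to an extra copy in 42.2% of the cells of p20 Mulas2019 replicate 2. By the same arithmetic the value was 28.2% in the library labelled p20 Keniry2022 replicate 1 and 16.3% in p20 Mulas2019 replicate 1. It was 12.5% in p10 Mulas2019 replicate 2, 12.3% in the library labelled p20 Keniry2022 replicate 2 and 3.28% to 6.51% in the remaining 3. These values depend strongly on the GC correction. Without it they were 25.1% and 34.7% in p10 Mulas2019, and 27.4% and 51.1% in p20 Mulas2019. In Keniry2022 conditions they were then 11.7% and 15.9% at p10, and 32.2% and 15.0% at p20. No library reached the value of a full extra copy in all cells. How copies are spread over cells was not measured.

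In Mulas2019 conditions both lines had a higher dose at p20 than at p10, by GC-corrected values of 0.11 against 0.023 in replicate 1 and 0.28 against 0.087 in replicate 2. In Keniry2022 conditions both p20 libraries lay above both p10 libraries after GC correction, while without it they overlapped when p0 was taken by replicate number. The p20 Keniry2022 libraries can instead be assigned to lines by their Y reads and not by their labels. The dose without GC correction was then 0.082 at p10 and 0.12 at p20 in the line with few Y reads. It was 0.11 and 0.20 in the line with more, so both p20 values lay above both p10 values. On the same assignment the GC-corrected dose at p20 was 0.11 in Mulas2019 and 0.088 in Keniry2022 conditions in the line with few Y reads, and 0.28 and 0.19 in the other, so that Mulas2019 was the higher in both lines. For the groups that match in days it reversed, with 0.023 in p10 Mulas2019 and 0.088 in p20 Keniry2022 in the line with few Y reads, and 0.087 and 0.19 in the other. Without GC correction p10 Mulas2019 was instead the higher of these in both lines, at 0.17 against 0.12 and 0.23 against 0.20. As unpaired groups, with p0 by replicate number, the protocols overlapped at p10 and at p20 after GC correction. So did p10 Mulas2019 and p20 Keniry2022, the groups that match in days, but narrowly. The higher p10 Mulas2019 value was 0.087 and the lower p20 Keniry2022 value 0.086. Assigned by Y reads, the lower p20 Keniry2022 value was 0.088, and these 2 groups did not overlap. Without the correction the p10 groups did not overlap, with Mulas2019 the higher. Replicate 2 exceeded replicate 1 by 0.064 in p10 Mulas2019, by 0.16 in p20 Mulas2019 and by 0.022 in p10 Keniry2022, and the difference was -0.10 in p20 Keniry2022. In each of these 4 groups the library with more Y reads had the higher dose of chromosome 3. If Y reads mark the lines, this is a contrast between 2 lines.

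The dose was then followed along the chromosome by segment. After GC correction, every one of the 16 segments of all 4 p20 libraries lay above the highest of the 231 segments of the other autosomes, which was 0.040 and 0.037 in p20 Mulas2019, and 0.046 and 0.030 in p20 Keniry2022. In p20 Mulas2019 replicate 2 the segments ran from 0.23 in segment 15 to 0.32 in segment 1, and in replicate 1 from 0.084 in segment 15 to 0.15 in segment 10. In p20 Keniry2022 they ran from 0.16 in segment 16 to 0.25 in segment 1 in the library labelled replicate 1, and from 0.063 in segment 12 to 0.11 in segment 5 in that labelled replicate 2. After the correction the gain at p20 thus covered the whole length and was not made by a single segment. Without it, 5 and 14 of 16 segments lay above the highest other segment in p20 Mulas2019, and 16 and 5 of 16 in p20 Keniry2022. In p10 Mulas2019 the GC-corrected segments ran from -0.014 to 0.088 and from 0.037 to 0.15, and in p10 Keniry2022 from 0.0056 to 0.049 and from 0.014 to 0.071. At p10 the segments overlapped those of the other autosomes, and 1 and 6 of 16 in Mulas2019 conditions and 3 and 2 of 16 in Keniry2022 conditions lay above the highest of them.

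**Figure D3:**
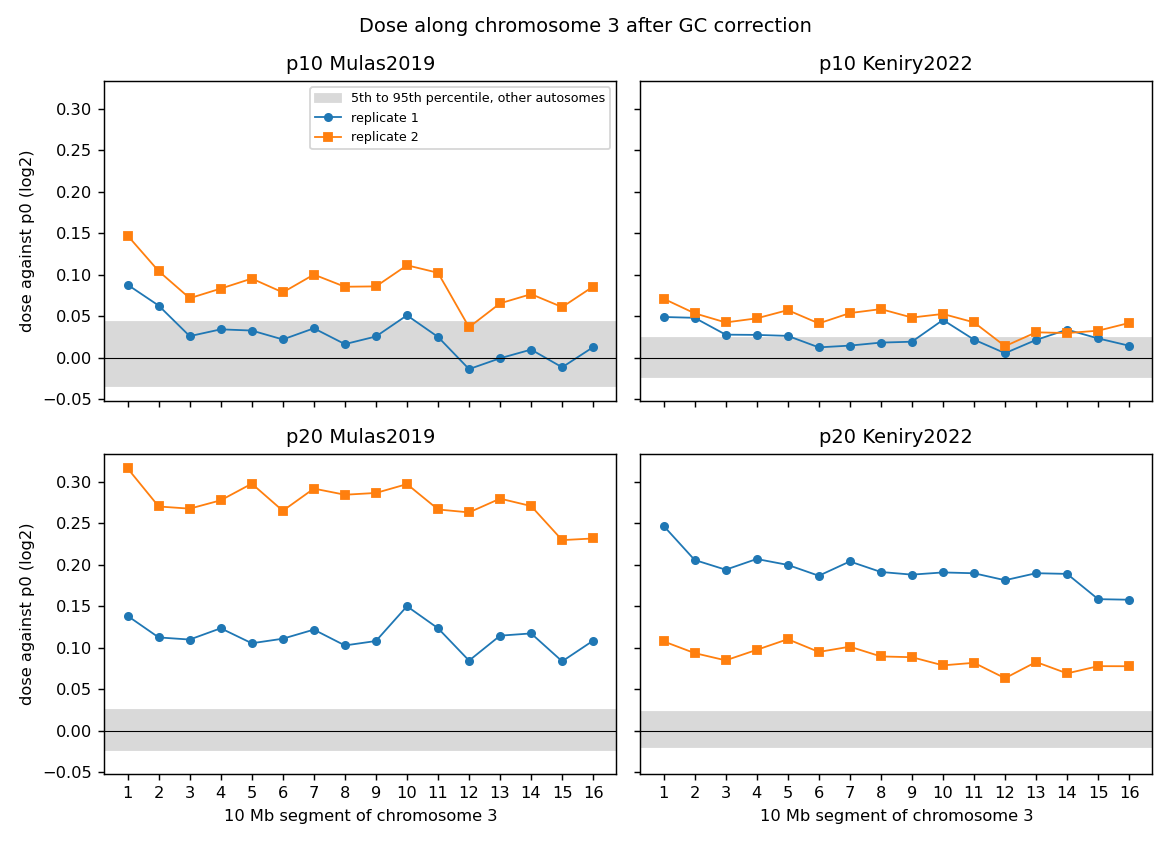
GC-corrected dose against p0 (log2, vertical axis) of the 16 segments of 10 Mb of chromosome 3, numbered from the centromere end (horizontal axis), in the 4 cultured groups, with a line for each library. The grey band spans the 5th to 95th percentiles of the segments of the other autosomes (lower and upper limits over both libraries); all p20 segments lie above it, segment 1 is the highest in mean dose in every group, and in p20 Mulas2019 replicate 2 and p20 Keniry2022 replicate 1 the last 2 segments lie below the others.

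By mean over both libraries, segment 1 was the highest in all 4 groups after GC correction. Its dose was 0.088 and 0.15 in p10 Mulas2019, 0.14 and 0.32 in p20 Mulas2019, 0.049 and 0.071 in p10 Keniry2022, and 0.25 and 0.11 in p20 Keniry2022. The lowest was segment 12 in both p10 groups, segment 15 in p20 Mulas2019 and segment 16 in p20 Keniry2022. Without GC correction the order followed base composition. Segment 8 was then the highest at p10 in both conditions and segment 5 at p20, while segment 11 was the lowest in 3 groups and the GC-rich segment 9, with 132 genes, in p20 Mulas2019. In p10 Mulas2019 the uncorrected dose was 0.53 and 0.69 in segment 8 and -0.088 and -0.014 in segment 11.

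Evenness was compared with that of the other autosomes, each around its own median. The SD over GC-corrected bins of chromosome 3 was 0.043 and 0.039 in p10 Mulas2019, 0.029 and 0.033 in p20 Mulas2019, 0.026 and 0.025 in p10 Keniry2022, and 0.030 and 0.024 in p20 Keniry2022. Counting error alone would give 0.019 to 0.020. These values lay inside the range of the other autosomes in 7 of 8 libraries. The exception was the library labelled p20 Keniry2022 replicate 1, whose 0.030 exceeded the highest of the others, 0.027. Without GC correction the SD was 0.25 and 0.27 in p10 Mulas2019 and 0.056 and 0.057 in p20 Keniry2022.

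Measured over the first 10 Mb and the last 20 Mb, both ends departed from the rest of the chromosome in the libraries with the highest doses. The GC-corrected first 10 Mb exceeded the chromosome median by 0.040 in p20 Mulas2019 replicate 2 and by 0.056 in the library labelled p20 Keniry2022 replicate 1, above the other autosomes, whose highest were 0.033 and 0.034. In the 6 other libraries this excess was 0.022 to 0.065, inside the range of the other autosomes, and the median of those was also above 0 in all 8 libraries. The last 20 Mb, segments 15 and 16, were lower than the chromosome, by -0.046 and -0.033 in the same libraries, below the other autosomes, whose lowest were -0.017 and -0.027. In p10 Mulas2019 replicate 2 the value was -0.026, also the lowest of 19 against -0.024, and in the 5 other libraries it lay between -0.023 and -0.0097, inside the range of the other autosomes. The distal result depended on the stretch taken. Over the last 10 Mb the value was -0.043 in p20 Mulas2019 replicate 2, where the lowest other autosome had -0.027. It was -0.027 in the library labelled p20 Keniry2022 replicate 1, inside the range of the others, whose lowest was -0.028. In p10 Mulas2019 replicate 2 it was 0.0071, also inside the range. Expressed as gain over p0, the last 20 Mb had 82.1% of the gain of the chromosome in p20 Mulas2019 replicate 2 and 81.9% in p20 Keniry2022 replicate 1, and 88.2% and 80.5% in the remaining p20 libraries. The distal end was still at 1.17 times p0 in p20 Mulas2019 replicate 2, where the chromosome was at 1.21 times.

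The position that split the chromosome into the most unequal parts was searched in each library, with at least 10 bins on either side. In p20 Mulas2019 replicate 2 the largest step lay at 141000001, with the distal part lower by -0.051, against at most 0.042 in size on another autosome. In the library labelled p20 Keniry2022 replicate 1 it lay at 17000001, with -0.043 distal of it, against at most 0.033. In the other 6 libraries the largest step of chromosome 3 was exceeded by that of another autosome, and these steps are small beside the doses of 0.28 and 0.19 themselves.

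**Figure D4:**
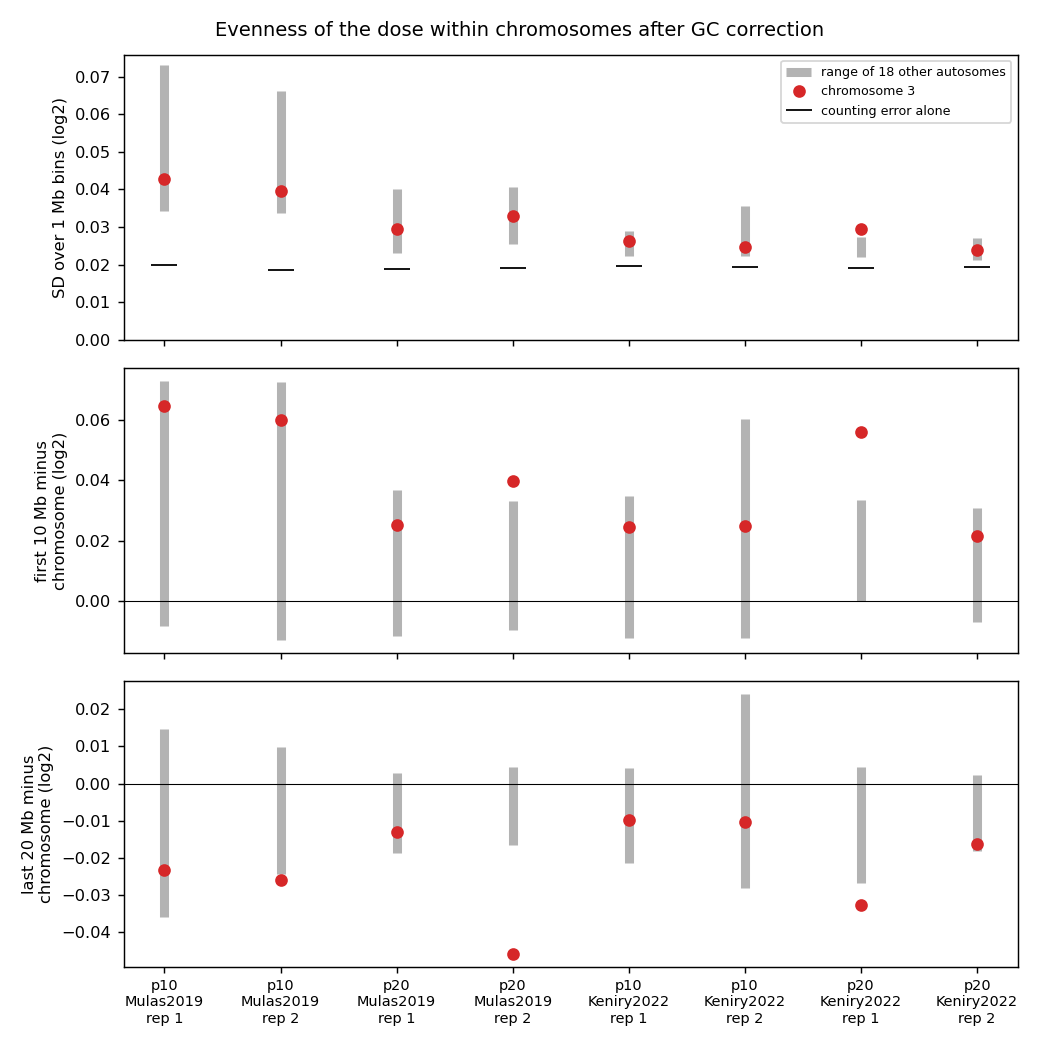
Evenness within chromosomes after GC correction in the 8 cultured libraries (horizontal axis): SD over 1 Mb bins (top), and the median of the first 10 Mb (middle) and of the last 20 Mb (bottom) minus the median of the whole chromosome, all in log2. Red circles are chromosome 3, grey bars the range of the 18 other autosomes and black dashes the SD from counting error. Over these 2 stretches chromosome 3 leaves the grey range at both ends in p20 Mulas2019 replicate 2 and p20 Keniry2022 replicate 1. Its SD leaves it only in p20 Keniry2022 replicate 1.

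At the level of single bins, 157 of 157 bins of chromosome 3 lay above the median of the other autosomes in both libraries of p20 Mulas2019 and 157 of 157 in both of p20 Keniry2022, after GC correction. Over all 2391 autosomal bins the shares were 36.2% and 33.5%. At p10 the counts were 110 of 157 bins in Mulas2019 conditions, against 38.5% of all, and 128 of 157 in Keniry2022 conditions, against 33.7% of all. These counts use the contrast by which the chromosome was chosen and carry no test. In bins of 100 kb, which hold a median of 1108 to 1498 reads, 100% of the 1565 bins of chromosome 3 lay above the other autosomes' median in p20 Mulas2019 replicate 2 and 99.7% in p20 Keniry2022 replicate 1. The share was 95.3% and 91.6% in the remaining p20 libraries, and 60.4% to 86.8% at p10. The other autosomes are centred on that median by construction.

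Whether single bins moved apart from the rest of chromosome 3 was tested after subtracting from every bin the median of its own chromosome in its library, which removes the gain of the chromosome as a whole. The test was TREAT in limma, which asks for a change beyond 1.1-fold, with Benjamini-Hochberg adjustment at 0.05 over the 2391 autosomal bins. In p10 Mulas2019 against p0, 98 of 157 bins passed, 53 higher and 45 lower than the chromosome, where 56.4% of all autosomal bins passed. The largest rises lay in AT-rich bins without a protein-coding gene start. The bin from 44000001 to 45000000 (GC content 36.3%) rose by 0.45 and 0.53 in the lines (log2FC 0.49, SE 0.028, limma adjusted p 5.6e-09). The bin from 71000001 to 72000000 (36.2%) rose alike, with a log2FC of 0.49.

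The largest fall at p10 Mulas2019 lay in a GC-rich bin. The bin from 89000001 to 90000000 (GC content 48.5%) holds 38 protein-coding genes, among them Cks1b, a cell cycle kinase subunit, and Adar, an RNA editing enzyme, and had a log2FC of -0.42 (SE 0.025). After GC correction the bins from 44000001, 71000001 and 89000001 stood at 0.015, -0.0040 and 0.031, and 0 of 157 bins passed, nor did any have an unadjusted TREAT p under 0.05.

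Fewer bins passed in the other comparisons with p0. In p20 Mulas2019, 5 of 157 bins passed, all higher, where 9.12% of all autosomal bins passed. In bins of 500 kb the 2 that passed were both lower. The count was 0 without p0 replicate 2 or p20 Mulas2019 replicate 2, 3 without p0 replicate 1, 1 without p20 Mulas2019 replicate 1, 8 when either p10 Keniry2022 library was left out and 18 when either p10 Mulas2019 library was. The bins from 44000001 (log2FC 0.25) and from 77000001 (0.24, GC content 36.9%) had the largest rises. In p10 Keniry2022, 2 bins passed, where 5.69% of all passed, and they were the same pair, with a log2FC of 0.24 and 0.25. Their count was 0 without p0 replicate 2 or p10 Keniry2022 replicate 2, 1 without p0 replicate 1, 10 without p10 Keniry2022 replicate 1 and 7 when either p10 Mulas2019 library was left out. These comparisons share the p0 libraries. After GC correction the bins from 44000001 and 77000001 stood at 0.025 and 0.039 in p20 Mulas2019, and at 0.029 and 0.064 in p10 Keniry2022. In both comparisons 0 bins then passed. In p20 Keniry2022, 0 bins passed with limma, 0 had an unadjusted TREAT p under 0.05 and 0 passed with voom, where 0% of all autosomal bins passed.

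Between the protocols at p10, 41 of 157 bins differed, with 14 higher in Keniry2022 conditions and 27 lower, where 27.6% of all autosomal bins differed. In bins of 500 kb, 46 were higher and 35 lower. The bin from 88000001 to 89000000 (GC content 47.4%), with 36 genes that include Lmna, which encodes nuclear lamins A and C, was higher in Keniry2022 by 0.33 and 0.23 (log2FC 0.28, limma adjusted p 0.00012). The bins from 43000001 (-0.29) and 47000001 (-0.28), with a GC content of 36.7% and 36.5% and no gene start, were lower. The count was 22 without p10 Mulas2019 replicate 2 and 17 without p10 Keniry2022 replicate 1, and it was 0 after GC correction. At p20, 0 bins differed with limma, with 0 at an unadjusted TREAT p under 0.05 and 0 with voom, where 0% of all autosomal bins differed.

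A finer reading, added after the data were seen, combined the GC correction with limma's test of any change, without a minimum. In p10 Mulas2019 against p0, 35 of 157 bins passed, 23 higher and 12 lower, where 23.2% of all autosomal bins passed. The count was 22 without p0 replicate 1. In p20 Mulas2019, 13 bins passed, 6 higher and 7 lower, where 4.85% of all passed, and the count was 7 when p0 replicate 2 was left out and 5 when p20 Mulas2019 replicate 2 was. In p10 Keniry2022, 1 bin passed, the one from 77000001 (log2FC 0.064), where 1.97% of all passed, and 0 passed when any of the p0 or p10 Keniry2022 libraries was left out. In p20 Keniry2022, 0 passed and 33 had an unadjusted limma p under 0.05, where 0% of all passed, and 1 passed when the library labelled p20 Keniry2022 replicate 2 was left out. In each comparison most bins of chromosome 3 thus did not pass.

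The bin from 91000001 to 92000000 moved most in Mulas2019 conditions. It was higher than the rest of chromosome 3 by 0.17 and 0.13 at p10 (GC-corrected log2FC 0.15, SE 0.016, limma adjusted p 3.7e-10) and by 0.11 and 0.060 at p20 (log2FC 0.084). It holds the start of 1 protein-coding gene, 9130204L05Rik. The bin from 106000001 to 107000000, which carries the chitinase family genes Chia1, Chil3 and Chil4, rose by 0.16 and 0.10 at p10 (log2FC 0.13). The bin from 96000001 to 97000000, with the Hist2 histone gene cluster among 38 genes, rose by 0.069 and 0.087 at p20 (log2FC 0.078, limma adjusted p 0.00069), whereas without GC correction its log2FC was -0.050. In the same libraries the whole chromosome had GC-corrected doses of 0.023 and 0.087 at p10, and of 0.11 and 0.28 at p20, so the departure of the bin from 91000001 exceeded it at p10 and was about as large in replicate 1 at p20.

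The largest falls were in gene-poor bins. The bin from 149000001 to 150000000, without a gene start, fell by 0.11 and 0.067 at p10 Mulas2019 (GC-corrected log2FC -0.089) and by 0.075 and 0.080 at p20 (log2FC -0.077). Its neighbour from 150000001, also without one, had a log2FC of -0.072 at p20, but 0.12 without GC correction, and both lie in the last 20 Mb described above. At p10 the bin from 124000001, with 3 genes, had a log2FC of -0.081, and its direction turned with the correction, since without it the log2FC was 0.30.

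Between the protocols, the same GC-corrected test without a minimum gave 14 differing bins at p10, 3 higher and 11 lower in Keniry2022, where 8.41% of all autosomal bins differed. The count was 5 without p10 Mulas2019 replicate 1 and 6 without p10 Keniry2022 replicate 1. The bins from 91000001 (log2FC -0.10) and 106000001 (-0.099) were the lowest, and those from 149000001 (0.056) and 128000001 (0.054) the highest, the last of which stood at -0.013 without GC correction. At p20 1 bin differed, that from 96000001 (log2FC -0.082, -0.066 and -0.099 by replicate number), where 1.09% of all differed. Its log2FC without GC correction was 0.0058. It was no longer called when p20 Mulas2019 replicate 2 or the library labelled p20 Keniry2022 replicate 2 was left out.

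The dose at 25 gene loci on chromosome 3 was read from the 19 bins that hold their starts. A bin of 1 Mb measures DNA copy and not expression, and loci in a shared bin have a single value. In p20 Mulas2019 replicate 2 the 19 bins had GC-corrected doses of 0.24 to 0.36 (median 0.28), and in p20 Keniry2022 replicate 1 of 0.15 to 0.23 (median 0.19). All 19 lay above the median of the other autosomes in 6 of 8 libraries, 18 in p10 Keniry2022 replicate 1, where 134 of the 157 bins of the chromosome did, and 16 in p10 Mulas2019 replicate 1, where 110 of 157 did. At p20 this follows from all 157 bins lying above that median, and the counts are a description. Without the GC correction several of these bins lay below that median, mostly at p10. The bin of Sox2 then had -0.14 and -0.024 in p10 Mulas2019, and that of Cks1b had -0.051 in p20 Mulas2019 replicate 1. The SD over the 19 GC-corrected bins was 0.013 to 0.032. Doses at loci given below are GC-corrected unless stated otherwise.

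Among pluripotency and signalling genes, Sox2 (chr3:34650405-34652461, plus strand) lay in a bin with GC-corrected doses of -0.024 and 0.086 in p10 Mulas2019, 0.079 and 0.29 in p20 Mulas2019, 0.016 and 0.064 in p10 Keniry2022, and 0.16 and 0.11 in p20 Keniry2022. In the libraries labelled replicate 1 the GC-corrected values lay below the chromosome as a whole. It stood there at 0.023 and 0.11 in p10 and p20 Mulas2019, and at 0.025 and 0.19 in p10 and p20 Keniry2022. In replicate 2 the bin lay just below it in p10 Mulas2019, at 0.086 against 0.087, and above it in the other groups. In p10 Mulas2019 replicate 1 the bin was the lowest of the 19. Fgf2, a growth factor of the FGF family, had 0.13 and 0.31 in p20 Mulas2019 and 0.23 and 0.14 in p20 Keniry2022. Tet2, an enzyme that oxidises methylated cytosine, had 0.098 and 0.28, and Lef1, a transcription factor of the Wnt pathway, had 0.11 and 0.28 in p20 Mulas2019. The bins of Skil, Notch2, Csf1 and Egf had 0.25 to 0.28 in replicate 2 of that group.

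Among growth and survival genes, the bin shared by Pik3ca, the catalytic subunit of a PI3 kinase, and Zmat3 and Actl6a had 0.13 and 0.29 in p20 Mulas2019 and 0.20 and 0.086 in p20 Keniry2022. Nras, a RAS family GTPase, had 0.14 and 0.31 in p20 Mulas2019. Mcl1, an inhibitor of apoptosis, shares its bin with Setdb1, a histone H3 lysine methyltransferase, and with Arnt, at 0.11 and 0.30. Bcl10, an adaptor protein of NF-kappaB signalling in segment 15, had the lowest values of the 19 bins in p20 Mulas2019, 0.061 and 0.24. The bins of Mecom and of Nfkb1 had 0.088 and 0.29, and 0.12 and 0.29.

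Among genes of the cell cycle and of chromosome segregation, Ccna2, which encodes cyclin A2, had 0.12 and 0.28 in p20 Mulas2019. Plk4, the kinase that starts centriole duplication, had 0.11 and 0.28, and Cenpe, a kinetochore motor that shares the bin of Nfkb1, had 0.12 and 0.29. Cks1b had 0.10 and 0.30. Terc, the RNA component of telomerase (chr3:96414437-96414859), lies in the same bin as the Hist2 cluster and had the highest values of the 19 bins in both p20 Mulas2019 libraries, 0.18 and 0.36, while in p20 Keniry2022 it had 0.20 and 0.076. That rank depended on the GC correction. Without it the bin had 0.085 and 0.27 in p20 Mulas2019, below the uncorrected 0.19 and 0.33 of the chromosome. Prmt6, an arginine methyltransferase, had GC-corrected values of 0.13 and 0.28 in p20 Mulas2019.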

How the data were processed

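DNA from 10 libraries (5 groups of 2) was sequenced as single reads, and the submitters' processing notes name bcl2fastq, Bowtie2 and mm10, with no versions given in the sources used here. The authors deposited log2 values in 10 kb windows. These were log2 reads scaled to the largest library, so whole reads could be recovered (100.0% of values within 0.1) and no authors' comparison was used. Reads were scaled to CPM and summed in 1 Mb bins, and bins under 0.1 of the median were removed (2541 of 2737 kept). GC content came from GRCm38, and a loess curve (span 0.3) was fitted on the other autosomes.

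The study tested voom values. Because the deposited unit is log2, limma 3.58.1 with a trended prior was used on log2 CPM centred on each chromosome's median, with all 10 libraries, the replicate number as a random block (consensus correlation 0.13), TREAT at 1.1-fold and an adjusted p of 0.05. The code was tested on simulated data. Python 3.11.15 and R 4.3.3 were used. The pairing of libraries by line comes from the study's methods. Over autosomes without chromosome 3, the differences between lines correlated at -0.058 to 0.19 among groups other than p20 Keniry2022 and at -0.073 to 0.069 with it.

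Named bins were up to 2 with the largest rise and up to 2 with the largest fall among those that passed, by the same rule for the added test. Segments were the highest and lowest by group mean, and gene loci a fixed list of 25. A bin and a locus that these rules name are not reported here. Chromosome 3, the gene list and the tests were chosen with earlier results of these data known. Blacklisted regions and replication timing were not used here.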

Additional observations from a re-analysis of the deposited data

Results flagged for a closer look

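The change of single bins within chromosome 3 differed between the protocols by a test of the difference itself. Without GC correction 41 of 157 bins of the chromosome differed at p10, where 27.6% of all autosomal bins did. With the GC correction and no minimum change, 14 bins differed at p10, where 8.41% of all did, and 1 at p20, where 1.09% did. These shares of chromosome 3 are near those of all autosomal bins. With groups of 2 libraries, no check for a library far from the others of its group was possible.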

How the results depend on the processing

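The counts of bins within chromosome 3 depended on the GC correction and on the minimum change. After the GC correction 0 bins passed in all 6 comparisons, with the random and with a fixed replicate block. With a fixed replicate block and no GC correction 13 bins passed in p20 Mulas2019 and 5 in p10 Keniry2022 against p0, and with no replicate block 3 and 1, as with voom (3 and 1). Read as a log2 fold change of 1.1, the minimum left 0 bins in every comparison. Without a minimum, 123 bins passed in p20 Mulas2019, 117 in p10 Keniry2022 and 46 in p20 Keniry2022 against p0, and 130 and 101 between the protocols at p10 and p20, where 1844, 1738, 517, 1973 and 1506 of all 2391 autosomal bins passed. In bins of 500 kb, which are more numerous, the counts were 199 in p10 Mulas2019, 2 in p20 Mulas2019 (both lower, against 5 higher in 1 Mb bins) and 5 in p10 Keniry2022 against p0, and 81 between the protocols at p10 (46 higher and 35 lower in Keniry2022, against 14 and 27). Leaving out each library, which assumes that a lone library of a group varies like the others, gave 93 to 98 bins in p10 Mulas2019, 0 to 18 in p20 Mulas2019, 0 to 10 in p10 Keniry2022, 0 in p20 Keniry2022, 17 to 50 between the protocols at p10 and 0 at p20. For the GC-corrected test without a minimum the same ranges were 22 to 37, 5 to 14, 0 to 1, 0 to 1, 5 to 15 and 0 to 1, and with a fixed or no replicate block 2 bins differed at p20.

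The mean dose of chromosome 3 was 0.20 in p10 Mulas2019, 0.26 in p20 Mulas2019, 0.096 in p10 Keniry2022 and 0.16 in p20 Keniry2022, and stayed above 0 in every alternative. The GC correction moved it to 0.055 in p10 Mulas2019 and 0.035 in p10 Keniry2022, and fitted on all autosomes to 0.054 and 0.035. Using a single library of each group it ran from 0.17 to 0.23, 0.19 to 0.33, 0.082 to 0.11 and 0.10 to 0.22. The spread along the chromosome, the mean SD over bins, was 0.26, 0.11, 0.11 and 0.056 in the same order. The GC correction moved it to 0.041, 0.031, 0.025 and 0.027, and fitted on all autosomes to 0.041, 0.031, 0.025 and 0.027. In 100 kb bins it was 0.29, 0.14, 0.13 and 0.086, in 500 kb bins 0.062 in p20 Keniry2022, and with crossed replicate numbers 0.056 there. With a single library of each group the spread was 0.25 to 0.27, 0.11 to 0.12, 0.093 to 0.12 and 0.055 to 0.057. Depth sets a floor of 0.019 to 0.020 for an SD over bins.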
